A study of Mus musculus with 2 samples.

Results

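The pigment cell genes Mitf, Tyr, Tyrp1, Dct, Pmel and Mlana were followed in a CUT&RUN profile of the transcription factor POU3F1 in embryonic retina (wild-type mice of the CD1 strain, embryonic day 14, E14). CUT&RUN releases and sequences the DNA that lies around a protein bound by an antibody. The genes were chosen by name, and their peaks are the entries under those names in the authors' table of genes and peaks, so that 6 genes of 21896 annotated protein-coding genes and 8 peaks of 2652 are described here. The study had 1 library with the POU3F1 antibody and 1 with rabbit IgG, both from unmodified embryos of the same age and strain. The IgG library was not analysed here, and with 1 library there was no replicate and no test of any difference. Fold is the authors' enrichment at the summit of a peak over its local background, read here as a ratio with 1 added to both counts.

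Pigment cells of the eye come from the outer layer of the optic cup, which forms the retinal pigment epithelium, and from the neural crest, which forms the melanocytes of the choroid and iris. Mitf encodes the basic helix-loop-helix factor that directs both, and it activates pigment genes through the M-box, an extended E-box in their promoters. Tyr, Tyrp1 and Dct encode the related enzymes of melanin synthesis, Pmel the protein that forms the fibrils of the early melanosome, and Mlana a melanosomal membrane protein needed for PMEL processing. CD1 is an albino stock with a defective tyrosinase, so its pigment cells are present but make no melanin. The labels call the tissue retina and the cells retinal cells. How far pigment epithelium was removed is not given in the sources used here, and which cells of the sample carried a peak cannot be told apart.

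POU3F1 peaks were assigned to 3 of the 6 genes, against 10.2% of all protein-coding genes. The 6 genes, and the lists described below, were chosen with earlier results of these data known. Shares set against all protein-coding genes are therefore descriptions and test no enrichment. Mitf had 4 peaks, Dct 3 and Tyrp1 1, while Tyr, Pmel and Mlana had none. The same 3 genes kept a peak at q-values under 0.01 or 0.001, where 9.99% and 9.6% of protein-coding genes had one, and within 500 kb of the start site, where 9.53% did. A single peak, at the start site of Dct, lay at a promoter, and it covered an M-box 232 bases from its summit. The other 7 lay outside every annotated gene. The strongest, 19.0-fold, was 311549 bp downstream of the first Mitf start site.

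The promoters of the 3 melanin enzyme genes are shown because all of them hold the same M-box, and among these 3 windows that of Dct alone was under a peak. The sequences are RefSeq windows of GRCm38.p6, the assembly of mm10, from 250 bases before to 50 after the start site, 5′ to 3′ on the strand of the gene. Capitals mark the M-box TCATGTGCT. The Dct window is chr14:118052197-118052496 on the minus strand, the Tyrp1 window chr4:80833963-80834262 on the plus strand and the Tyr window chr7:87493463-87493762 on the minus strand.
Dct: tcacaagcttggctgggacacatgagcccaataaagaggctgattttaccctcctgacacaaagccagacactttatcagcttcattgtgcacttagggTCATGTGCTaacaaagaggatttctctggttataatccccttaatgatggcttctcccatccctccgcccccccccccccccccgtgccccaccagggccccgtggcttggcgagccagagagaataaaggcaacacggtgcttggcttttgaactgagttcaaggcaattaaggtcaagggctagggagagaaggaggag
Tyrp1: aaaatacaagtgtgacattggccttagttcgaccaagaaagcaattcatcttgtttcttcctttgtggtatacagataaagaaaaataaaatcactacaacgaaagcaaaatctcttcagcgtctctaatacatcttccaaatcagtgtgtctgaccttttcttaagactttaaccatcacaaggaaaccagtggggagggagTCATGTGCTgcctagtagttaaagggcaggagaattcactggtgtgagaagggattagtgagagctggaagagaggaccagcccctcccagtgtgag
Tyr: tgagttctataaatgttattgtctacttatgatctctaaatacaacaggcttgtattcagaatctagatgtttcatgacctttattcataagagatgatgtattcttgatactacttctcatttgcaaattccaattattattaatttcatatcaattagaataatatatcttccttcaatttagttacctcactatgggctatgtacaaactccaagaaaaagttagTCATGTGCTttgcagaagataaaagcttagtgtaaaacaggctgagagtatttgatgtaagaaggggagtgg

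The M-box lay 151 to 143 bases before the start site in Dct, 47 to 39 before it in Tyrp1 and 22 to 14 before it in Tyr. Searched on both strands, TCATGTGCT was in 134 of 32851 promoter windows of the same length, or 0.408%. The promoters of Dct, Tyrp1 and Tyr were shown because they hold it, so this share tests no enrichment. Its core CATGTG, which the longer motif contains, was in 14.2% of windows, and Dct held a second copy of the core on the opposite strand, 232 to 227 bases before its start site. The octamer ATGCAAAT, the classical recognition sequence of POU factors, was found on neither strand in any of the 6 windows of Dct, Tyrp1, Tyr and Mitf, and was in 1.74% of all windows. Only these exact letters were searched, and only in these windows: the summit of the Dct peak, 124 of its 329 bases and all distal peaks lay outside them and were not searched. Pmel and Mlana have no entry in the promoter table.

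Dct, which encodes the enzyme dopachrome tautomerase, had a peak across its start site at chr14:118052073-118052401. The middle of the peak was 9 bp downstream of the start site and its summit 85 bp downstream. The peak was 329 bp long and covered 205 bases of the promoter window, counted from its downstream end, and the M-box lay inside it, 4 bases from the upstream edge and 232 from the summit. Its fold was 8.35 (q-value 1.68e-11), with a summit pileup of 16 fragments (95% exact Poisson interval 9.15 to 26.0, counting error only). Among members, 1 of 6 had a peak within 1 kb of its start site, against 0.909% of protein-coding genes.

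**Figure D1:**
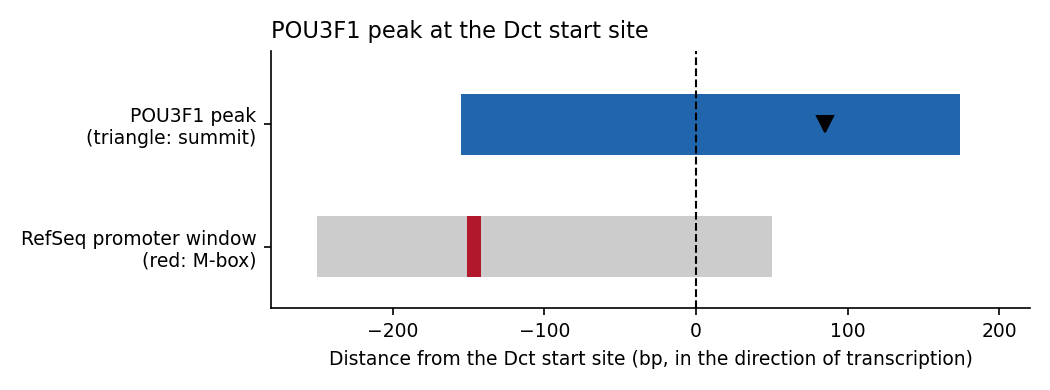
Position of the POU3F1 peak (blue, summit as a triangle) and of the RefSeq promoter window (grey, M-box in red) in bp from the start site of Dct, in the direction of transcription. The peak spans the start site, its summit lies 85 bp downstream, and the M-box sits 4 bases inside its upstream edge.

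Among the 179 peaks within 1 kb of an assigned start site, 57.0% had a lower fold than the peak at Dct but 19.6% a lower pileup. The promoter peaks as a whole had a median fold of 6.88 (quartiles 5.21 and 12.7) and a median pileup of 33 fragments (quartiles 17 and 63). The Dct peak therefore had a middling fold on few fragments, over a local background of 1.04 fragments, the lowest value in the list.

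Dct had 2 further peaks, both upstream and both shared with Tgds, which encodes a dTDP-glucose dehydratase family enzyme. The nearer one, chr14:118080572-118080946, was 28513 bp upstream of Dct and had the highest fold of the 3, 10.8 (q-value 9.34e-18, pileup 21 fragments). The farther one, chr14:118088402-118088826, was 36368 bp upstream with 8.35-fold and 16 fragments. Both were closer to the start site of Dct than to that of Tgds, 52006 and 44151 bp away. Measured to gene bodies, the farther peak was closer to Tgds, 23084 bp away, than to Dct, 36155 bp away. The nearer peak was 28325 bp from the body of Dct and 30964 bp from that of Tgds. The farther peak lay 698 bp from the tRNA gene n-TFgaa5.

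Tyrp1, whose product acts later in eumelanin synthesis in the mouse, had 1 peak at chr4:80864567-80864880. It was 11.8-fold (q-value 2.04e-20, pileup 23 fragments, 95% exact Poisson interval 14.6 to 34.5) and lay 30493 bp downstream of the start site, 12830 bp past the end of the gene. It was also assigned to Lurap1l, whose start site was 45923 bp away. On the other side of Tyrp1 no peak was called for 7316939 bp. The whole stretch without a peak was 7347702 bp long, and 9.26% of protein-coding genes lay in a stretch at least as long.

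Mitf had its 4 peaks on both sides of the gene and none within its 214359 bp body (chr6:97807002-98021360). RefSeq gives 3 Mitf promoters, with start sites at 97807058, 97929817 and 97991783, and the deposited distances were counted from the first. In the mouse the promoter nearest the shared exons serves melanocytes, and promoters farther upstream serve the pigment epithelium among other tissues. None of the 3 promoter windows overlapped a peak.

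The strongest Mitf peak, chr6:98118173-98119042, was 19.0-fold (q-value 2.94e-57) with 57 fragments at the summit (95% exact Poisson interval 43.2 to 73.9). At 870 bp it was longer than 94.4% of all peaks, and its fold ranked 135 of 2652. It lay 311549 bp downstream of the first start site and 126825 bp downstream of the third, 96812 bp past the end of Mitf.

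A second peak, chr6:98049029-98049252, was 11.8-fold (q-value 2.04e-20, 23 fragments) and lay nearest to the gene, 27668 bp past its end and 57358 bp downstream of the third start site. Between these lay the weakest member peak, chr6:98080156-98080459, with 3.93-fold, a q-value of 0.0323 and 7 fragments (95% exact Poisson interval 2.81 to 14.4). No peak of the list with a recovered pileup rested on fewer fragments. The peak on the upstream side, chr6:97666825-97667077, was 140107 bp from the first start site, with 7.10-fold (q-value 9.52e-15) and 28 fragments.

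Every Mitf peak was shared with a neighbour. The 3 downstream peaks were also assigned to Gm765, whose start site was 262447 bp from the weak peak and 224147 bp from the strongest. Both of these were thus closer to the start site of Gm765 than to the first of Mitf. Measured to gene bodies the order was the other way: the strongest peak was 96812 bp from Mitf and 118971 bp from Gm765. The upstream peak was shared with Frmd4b, which encodes a FERM-domain scaffold protein and whose start site was 179146 bp away. Measured to gene bodies, this peak was closer to Frmd4b, 49167 bp away, than to Mitf, 139924 bp away. Without the 2 peaks nearer to the start site of Gm765 than to the first of Mitf, the strongest fold at Mitf was 11.8.

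**Figure D2:**
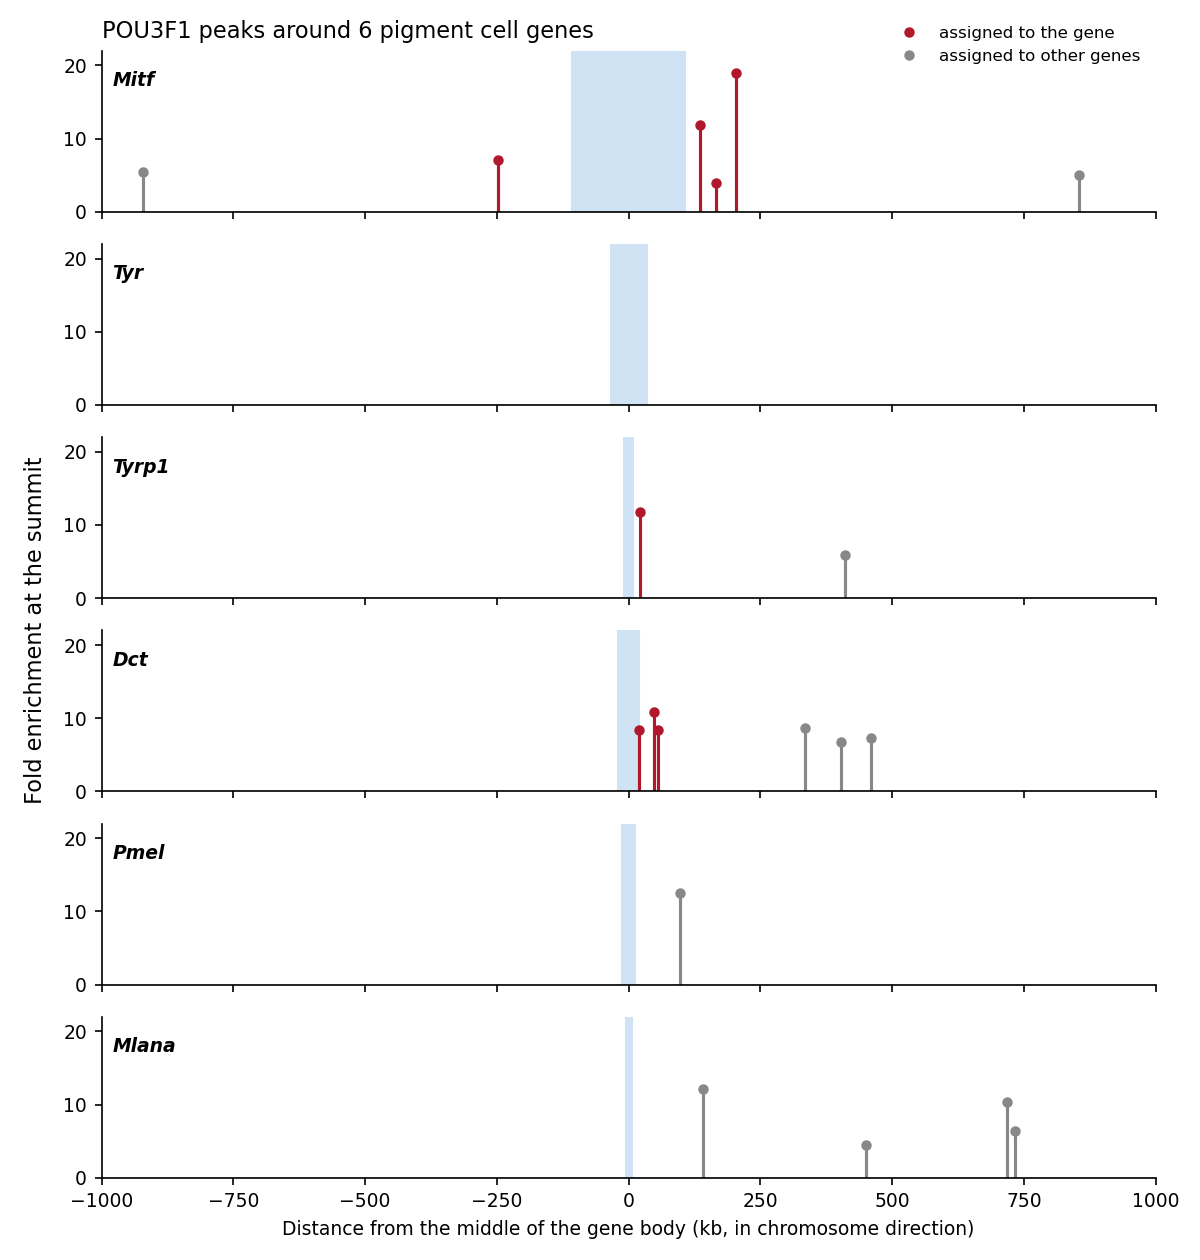
POU3F1 peaks within 1000 kb on each side of the 6 genes, by distance from the middle of the gene body (kb, shaded) and fold enrichment at the summit. Red marks the 8 peaks assigned to the gene and grey those assigned to other genes; Mitf, Tyrp1 and Dct have peaks nearby, and the Tyr panel is empty.

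The 3 genes without a peak differed in how far their surroundings were empty. Around Tyr, the gene of tyrosinase itself (chr7:87424771-87493512), the nearest peaks were 2086181 and 3022534 bp from the gene body. The stretch without a peak was 5177808 bp long, but 24.6% of protein-coding genes lay in a stretch at least as long. No peak lay within 1 Mb of Tyr, as for 33.3% of 21627 genes compared.

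Pmel (chr10:128695888-128720238) had a peak of 12.5-fold 84377 bp away, with 33 fragments. It lay at the neighbouring start sites of Dnajc14, 771 bp upstream, and Tmem198b, 535 bp upstream, and was assigned to these. Mlana (chr19:29697541-29708447) had a peak of 12.2-fold 135396 bp away, with 55 fragments, which was assigned to Ranbp6 and Il33. Both peaks had higher folds than any of Tyrp1 and Dct, but neither was assigned to Pmel or Mlana. In the gene table the domain of a gene extends only as far as the basal domain of a neighbour. That basal domain runs from 5000 bp upstream to 1000 bp downstream of the neighbour's start site. Extended domains can overlap, so that a peak can be shared.

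The loci differed in the room around each gene. The span between the flanking protein-coding genes was 2698943 bp at Tyrp1, 620356 bp at Mitf and 132381 bp at Dct. It was 185270 bp at Tyr, 73960 bp at Pmel and 65986 bp at Mlana, against a median of 76647 bp over all genes. Within 1 Mb of the gene body there were 7 peaks at Mitf, 6 at Dct, 4 at Mlana, 2 at Tyrp1 and 1 at Pmel, against a median of 1. The part of locus length in the count of members with a peak was not tested.

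As a group, the 8 peaks had a median fold of 9.58, against 6.37 over all 2652 peaks (quartiles 4.91 and 8.84), and 7 of 8 were above that median. Fold reached 10 or more in 4 of the 8 peaks and in 18.7% of all. Counting only such peaks, 3 of 6 members had one, against 2.78% of protein-coding genes. Median pileup was close, 22 fragments for the 8 peaks and 19 for the list, and median length was 322 bp against 352 bp.

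Background was at the lowest value of the list, 1.04 fragments, at 6 of the 8 summits. The same value stood at 30.1% of the 2608 peaks with a recovered pileup, and the list median was 1.61 fragments. Fold is a ratio over this background. With median pileups so close, the higher median fold of the 8 peaks went with low background and was not read as stronger signal. Whether low background is a property of these loci was not tested. Folds rise in whole-fragment steps, so equal values recur. The Tyrp1 peak and the 11.8-fold Mitf peak had identical folds and p-values, which 9 peaks of the list shared, and the first and the farthest Dct peaks shared theirs with a total of 24. The strongest peaks of Tyrp1 and Dct, with 23 and 21 fragments at a background of 1.04, differed by less than the counting error of either.

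**Figure D3:**
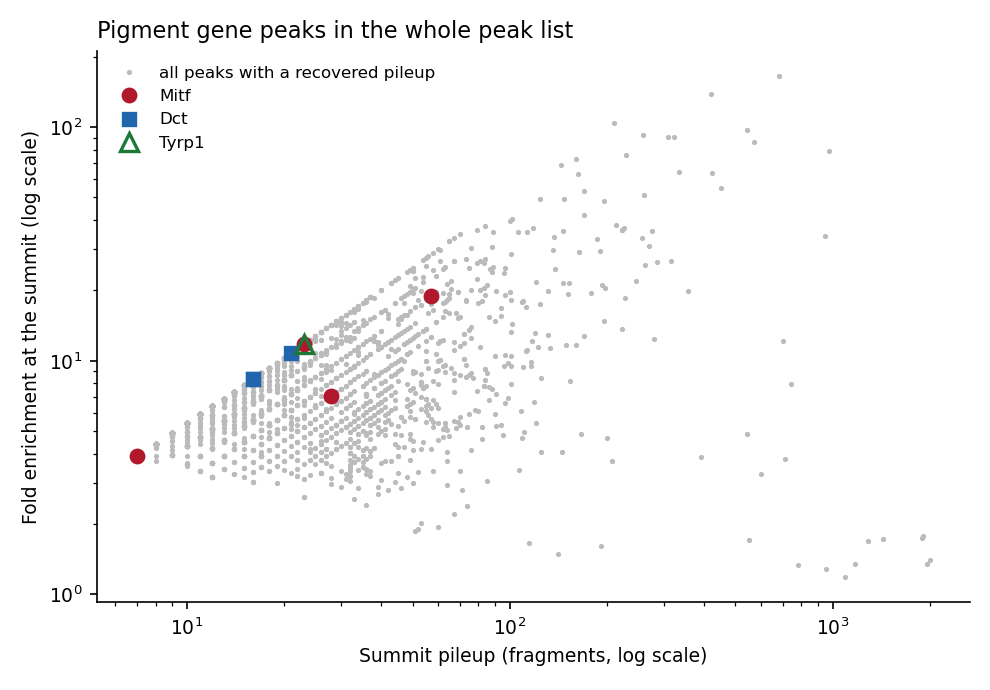
Fold enrichment against summit pileup in fragments, both on log scales, for all peaks with a recovered pileup (grey) and for those of Mitf, Dct and Tyrp1. The upper edge of the cloud holds the peaks of lowest background; the peak of Tyrp1, those of Dct and 2 of Mitf sit on it, and 2 Dct peaks coincide at 16 fragments and 8.35-fold.

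By distance, 4 of the 8 peaks lay within 50 kb of the start site of the member, namely all 3 of Dct and that of Tyrp1, and the 4 Mitf peaks lay over 100 kb from the first Mitf start site. From the third, 2 of them lay 57358 and 88525 bp away. With assignment limited to 50 kb, 2 of 6 members had a peak, against 3.67% of protein-coding genes. With each peak given to its nearest assigned start site alone, 6 peaks and 3 members remained, against 6.75% of genes.

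Other genes of pigment cells were described with 3 lists of 61 genes, of which 14 (23.0%) had a peak, against 10.2% of protein-coding genes. By list, 10 of 19 regulators had one (52.6%), 4 of 28 genes of the melanosome and of pigment chemistry (14.3%), a share near that of all protein-coding genes, and 0 of 14 genes of pigment epithelium function, such as Rpe65, Lrat and Rlbp1 of the visual cycle. By nearest assigned start site the lists were closer, with 5 of the 19 regulators and 4 of the 28 melanosome and chemistry genes. Within 50 kb, 3 regulators and 3 melanosome and chemistry genes had a peak. Differences between the lists were not tested. Of the 14 genes, 9 were the nearest assigned start site of at least 1 peak, which is 14.8% of the 61 against 6.75% of protein-coding genes. A peak within 50 kb was found for 6, or 9.84% of the 61 against 3.67%. Among genes with any peak, these were 6 of 14 in the lists, against 36.5% over the whole gene table. With folds of 10 or more there were 2, or 3.28% of the 61 against 2.78%, a share near the background. Their median strongest fold was 6.87, against 7.34 over all genes with a peak and 11.8 over the 3 members.

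Among the regulators, Pax6 had the highest fold within 50 kb of its start site. This eye determination gene, which is also active in the neural retina, had 7 peaks, of which an 11.4-fold peak 665 bp upstream (chr2:105675252-105675675) had 81 fragments. Otx1 had 1 peak of 4.72-fold, 15928 bp upstream. Otx2, which acts with MITF in the pigment epithelium, had 1 of 5.40-fold, 282019 bp upstream and nearer to Ap5m1.

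Pax3, Tfec and Lef1 had peaks that mostly lay far from their start sites. Pax3, a neural crest factor that activates Mitf, had 2 peaks, of 5.40-fold 28976 bp and 7.37-fold 272428 bp downstream. Tfec, which encodes a relative of MITF, had 3 peaks from 171012 to 820501 bp downstream, of 6.07-fold to 8.35-fold. Lef1, a Wnt effector, had 2 of 6.37-fold and 5.89-fold, the nearer one 146642 bp upstream.

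The endothelin receptor gene Ednrb had 4 peaks with a strongest fold of 19.7, all 454344 bp or more upstream and all also assigned to Pou4f1, whose start site was nearer. The single peaks of the receptor gene Kit (3.54-fold), of Tfap2a (5.12-fold) and of the agouti gene a, also called Asip (7.85-fold), were likewise nearer to another gene. That of Kit was nearer to Kdr, that of Tfap2a to Ofcc1 and that of a to Eif2s2. Sox10, which activates Mitf and Dct in the neural crest, had no assigned peak, and neither had Mc1r, Kitl and Edn3.

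Of the melanosome and chemistry genes, Slc7a11, the cystine transporter gene of pheomelanin synthesis, had 3 peaks, 1 of them 1933 bp upstream (6.30-fold, 15 fragments). Mreg, a melanosome transport gene, had 1 peak 14236 bp upstream (4.30-fold), and Lyst, a lysosomal trafficking gene, 1 peak 13427 bp upstream (4.91-fold). Dtnbp1, a gene of the BLOC complex of melanosome biogenesis, had 3 peaks over 100 kb downstream, of 3.88-fold to 8.07-fold. Of these, 2 were nearer to Jarid2. The remaining peak, 132365 bp from Dtnbp1 and 138511 bp from Jarid2, had the lowest fold, 3.88, although its pileup was 390 fragments. The melanosome channel and transporter genes Oca2, Slc45a2 and Slc24a5 had none.

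**Figure D4:**
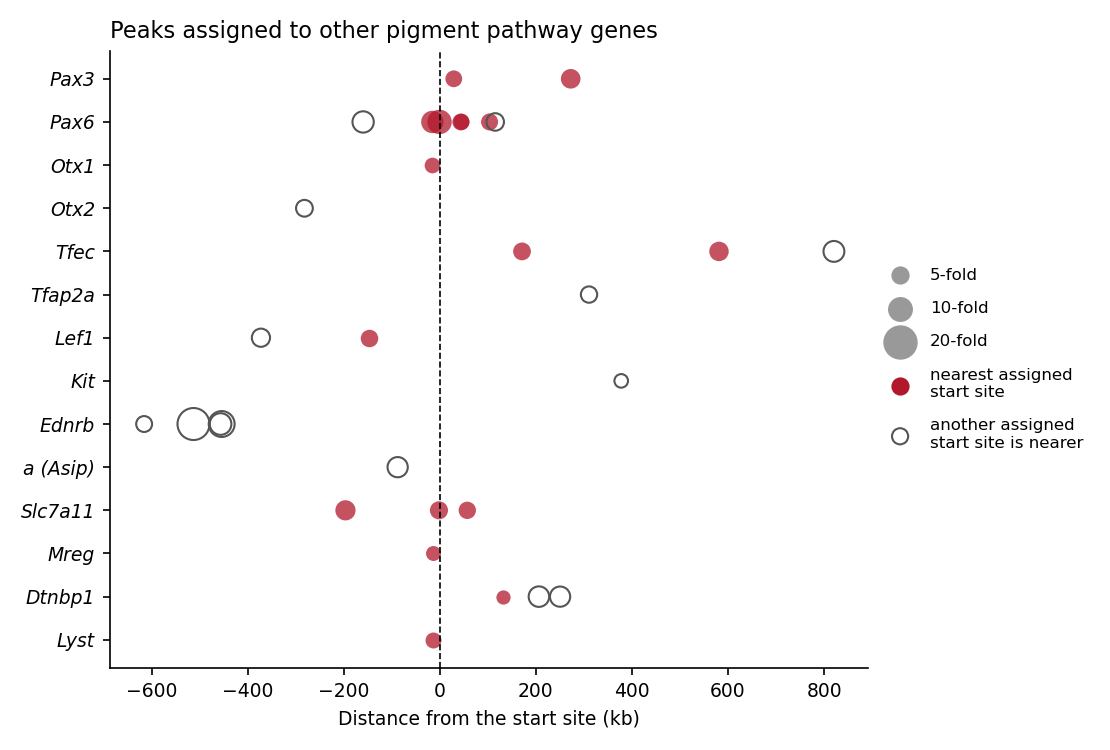
Peaks assigned to the 14 other pigment pathway genes with a peak, by signed distance from the start site in kb, with circle area proportional to fold. Filled circles mark peaks for which the gene is the nearest assigned start site; those of Pax6 lie between 15667 bp upstream and 103506 bp downstream, and all 4 of Ednrb are open and distant.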

How the data were processed

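Chromatin of E14 retina was profiled by CUT&RUN with 1 POU3F1 and 1 rabbit IgG library. Per the submitters' processing notes, the build was mm10 and the tools were Bowtie2, MACS2 and deepTools (no versions named). The authors' deposited peak list gave each interval a fold (a ratio over local background), a −log10 p-value and −log10 q-value, and a score. Whether IgG was the peak caller's control is not stated there. The gene table was made with GREAT 4.0.4, per the file headers, with extension of gene domains by up to 1000 kb. Distances run from peak midpoints to 1 start site per gene.

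Each pair of gene and peak was placed by fitting the start site and strand that put all distances of the gene on midpoints within 1 bp (4293 of 4427 pairs, 97.0%). Placement and pileup recovery were tested on simulated data. Summit pileup was the whole number that gives the deposited fold and −log10 p within 0.001 (2608 peaks, 98.3%). For the fold, 1 was added to both pileup and background. Library depth is unknown. Genes were matched to RefSeq GRCm38.p6 by symbol, and Asip by its mouse symbol a. Coordinates count from 1. Members and lists were chosen with earlier results of these data known, so counts are descriptions. One gene of the regulator list is not reported here and is in no count of it. Named genes were all 6 members, list genes with a peak and genes sharing a peak with a member; genes named as lacking a peak were picked after their values were seen. Alternatives varied the q-value, fold, distance and nearest start site. Scripts used Python 3.11.15, SciPy 1.17.1 and pandas 2.3.3.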

Additional observations from a re-analysis of the deposited data

How the results depend on the processing

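The count of 3 members with a peak stayed at 3 with q-values under 0.01 or 0.001, within 500 kb and by nearest assigned start site. It also stayed at 3 with folds of 10 or more, where Dct and Tyrp1 passed within counting error of the limit. Within 50 kb it was 2. The count of 8 member peaks was 7 under either q-value limit, 6 by nearest assigned start site and 4 with folds of 10 or more as well as within 50 kb. Of the other pathway genes, 14 had a peak, 2 at folds of 10 or more, 6 within 50 kb and 9 by nearest assigned start site, against 2.78%, 3.67% and 6.75% of protein-coding genes. At Mitf, the strongest fold was 11.8 by nearest assigned start site, against 19.0, because the strongest peak is nearer to the start site of Gm765 than to the first Mitf start site, although the third Mitf start site is nearer still. Distances from the summit differed from those from the midpoint by at most 135 bp, with the same sign. Peaks were called once, on 1 library, and 7 of the 8 member peaks rest on 28 fragments or fewer. No paired analysis was possible because each antibody had 1 library.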
